A study of Mus musculus with 12 samples.

Results

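The brush border peptidases and intestinal alkaline phosphatase are the digestive enzymes that stand on the luminal membrane of enterocytes, the absorptive cells of the small intestine. Their messages were followed here in 8 genes: Anpep, Enpep, Dpp4, Ace, Mep1a, Mep1b and Alpi, with Vil1, which encodes the actin-bundling core protein villin. All probe sets whose only annotated symbol was one of these were taken, without regard to their values. That gave 9 of the 22690 probe sets of the array, covering 7 of the 8 genes, among 12394 genes on the array. Dpp4 and Ace had 2 probe sets each and Anpep, Enpep, Mep1a, Mep1b and Vil1 had 1 each. Alpi matched no probe set and was not analysed here, so alkaline phosphatase is represented below by Akp3, the other intestinal alkaline phosphatase gene of the mouse, which was taken from a separate list.

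RNA of the full-length small intestine was hybridised on 12 Affymetrix MOE430A arrays, 3 biological replicates in each of 4 groups. The groups were PPARα-null mice fasted for 24 h, PPARα-null mice with free access to feed, wild-type mice fasted for 24 h and wild-type mice with free access to feed, all male and 14 weeks of age. PPARα is the nuclear receptor through which fatty acids switch on the genes of fat oxidation during fasting. The series text gives AIN93M diet for all animals, whereas the study's methods give laboratory chow. PPARα-null mice were 129S4/SvJae and wild-type mice 129S1/SvImJ in the series text, so genotype and substrain cannot be told apart. The labels of the fed animals give only 129Sv. The labels of the 3 fasted wild-type samples disagree among themselves: titles and strain read wild-type and the free-text description reads PPARα knockout. Titles and strain were followed, and every fasted wild-type value and genotype difference below rests on them. No source used here says whether a replicate was 1 mouse. The p-values and standard errors below rest on 1 estimate of the spread per probe set, shared by the 4 groups. They do not measure the spread of the 3 samples of a single group.

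On its way to absorption, dietary protein that pancreatic proteases have cut is trimmed at the brush border to amino acids, dipeptides and tripeptides. Aminopeptidases take residues off the N-terminus, dipeptidyl peptidase IV takes off N-terminal dipeptides, angiotensin-converting enzyme takes dipeptides off the C-terminus, and the meprins cut inside the chain. The enzymes are anchored in microvilli that villin helps to hold upright, and intestinal alkaline phosphatase removes phosphate from dietary esters and from bacterial lipopolysaccharide on the same membrane. Several of these enzymes also act on hormones: dipeptidyl peptidase IV inactivates the incretins, and glutamyl aminopeptidase and angiotensin-converting enzyme belong to the renin-angiotensin system.

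The values are deposited GCRMA intensities on a linear scale. The 6 fasted arrays carried lower intensities than the 6 fed arrays over the whole range. The median array intensity lay between 11.1 and 11.3 in fasted arrays and between 12.7 and 12.8 in fed arrays. The median probe set was lower by 0.32 on the log2 scale (1.24-fold) in the fasted arrays of both genotypes together. Changes upon fasting are therefore given as log2 differences relative to this common shift, and a deposited change is lower by 0.32. Among the most abundant 10% of probe sets, which hold 8 of the 9 probe sets followed here, the shift was smaller, with a median of -0.22, so that the smallest of the differences below depend on this choice. Differences between genotypes do not depend on it. A probe set passed the test when its p before adjustment was below 0.01, its change was more than 1.3-fold and its mean in fed wild-type mice was above 20 (for genotype differences, its mean in either group compared). All p-values come from limma fitted to every probe set of the 12 arrays, with Benjamini-Hochberg adjustment.

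Ppara itself, which bears on that conflict between labels, read 13.2, 11.7 and 10.96 in fasted PPARα-null mice and between 6.84 and 7.50 in fed PPARα-null mice, against 30.8 to 58.7 in fasted and 19.9 to 35.9 in fed wild-type mice. No source used here places its probes relative to the disrupted part of the gene. The 13 enterocyte markers on the array were all above 20 in every group, with summed intensities of 72920 to 75220 in fasted and 75990 to 76530 in fed PPARα-null mice, and of 70260 to 73560 in fasted and 74570 to 80550 in fed wild-type mice. Pancreatic signal did not follow the groups evenly: the sum of 14 exocrine pancreas markers was 27940, 1170 and 28620 in the 3 fasted PPARα-null arrays and 1280 to 1582 in fed PPARα-null mice, against 12500 to 23510 in fasted and 1142 to 2988 in fed wild-type mice. In these whole-tissue samples fewer cells of a type and less RNA per cell cannot be told apart.

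**Figure D1:**
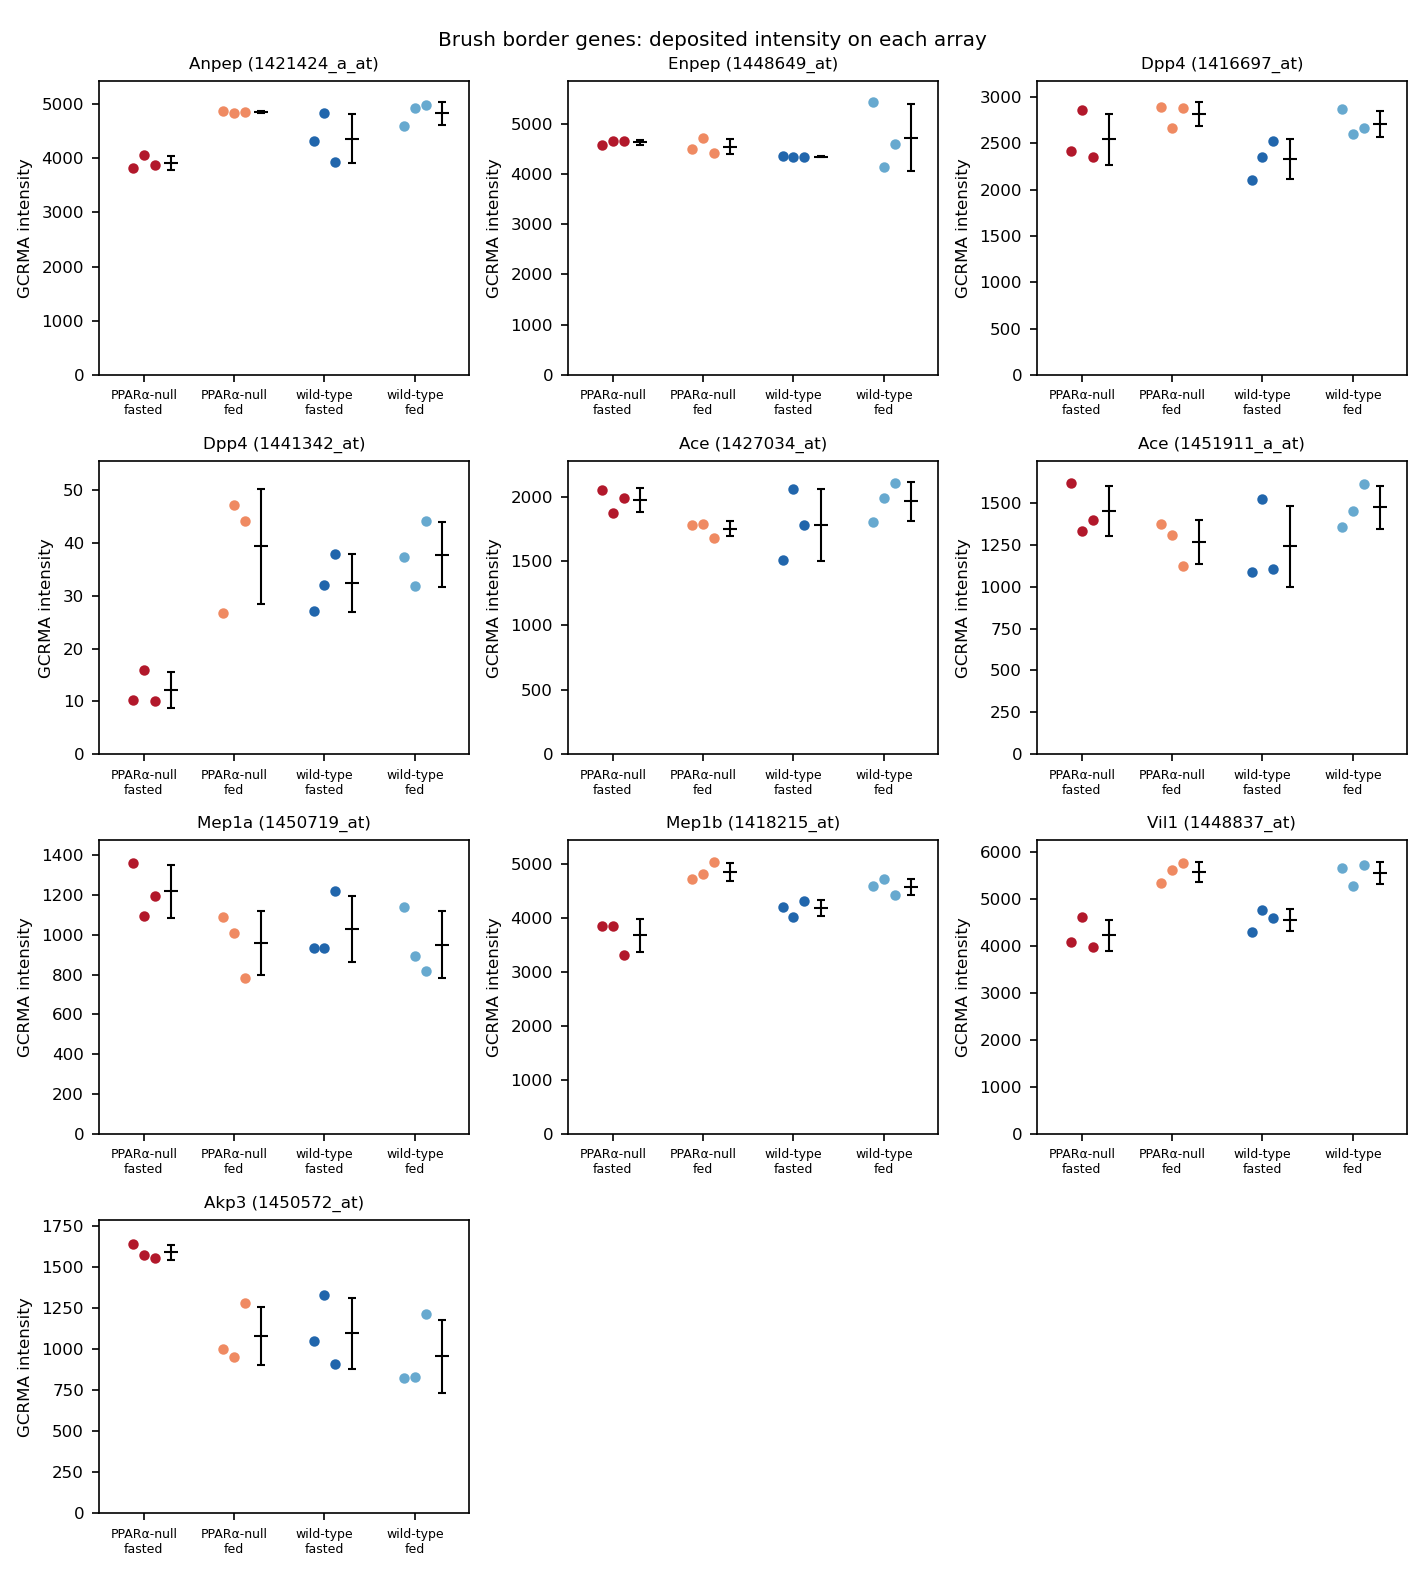
Deposited GCRMA intensity (linear axis from 0) on each of the 12 arrays for the 9 probe sets and for Akp3, by group; points are arrays and the bar beside them is the mean ± SD of 3. For Dpp4 1441342_at the 3 fasted PPARα-null arrays lie between 10.1 and 16.0, below all other arrays. For Akp3 they lie between 1551 and 1638, above all other arrays. For the other probe sets the groups stand closer together.

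In PPARα-null mice 4 of the 9 probe sets passed the test upon fasting (44.4%), close to the 42.2% of all 9370 probe sets tested. Both Ace probe sets and Mep1a were higher after fasting (3 of 9, against 18.6% of all probe sets), and the dim probe set of Dpp4 was lower (1 of 9, against 23.6%). The median of the 9 was 0.16 on the log2 scale, against -0.02 over all probe sets tested. As deposited, 3 of the 9 passed in PPARα-null mice, all lower, against 51.5% of all probe sets (765 higher and 4064 lower). In wild-type mice none of the 9 passed upon fasting, against 17.5% of all 9370 probe sets tested (10% higher and 7.43% lower). All 9 differences were positive relative to the common shift, lying between 0.03 and 0.43. Their median was again 0.16, where all probe sets tested had a median of 0.03. In both genotypes the medians over all probe sets cover all intensities. The most abundant 10%, which hold 8 of the 9, had a smaller shift (-0.22), which raises these differences. With the shift matched on intensity, Ace 1451911_a_at (-0.040) and Vil1 (-0.066) were negative in wild-type mice. As deposited, 8 of the 9 were negative and Mep1a was positive. None of them passed, while 34.2% of all probe sets did (233 higher and 2971 lower). Without fasting, none of the 9 passed between PPARα-null and wild-type mice, against 2.66% of 9560 probe sets, and no difference exceeded 0.22 in size. Among fasted mice 1 of the 9 passed, the dim Dpp4 probe set, which was lower in PPARα-null mice, against 30.8% of 9217 in either direction and 16.8% that were lower. The same probe set was the only one whose response to fasting differed between the genotypes (interaction, adjusted p under 0.05), against 23.8% of 9874 in either direction and 14.6% with a lower response in PPARα-null mice.

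**Figure D2:**
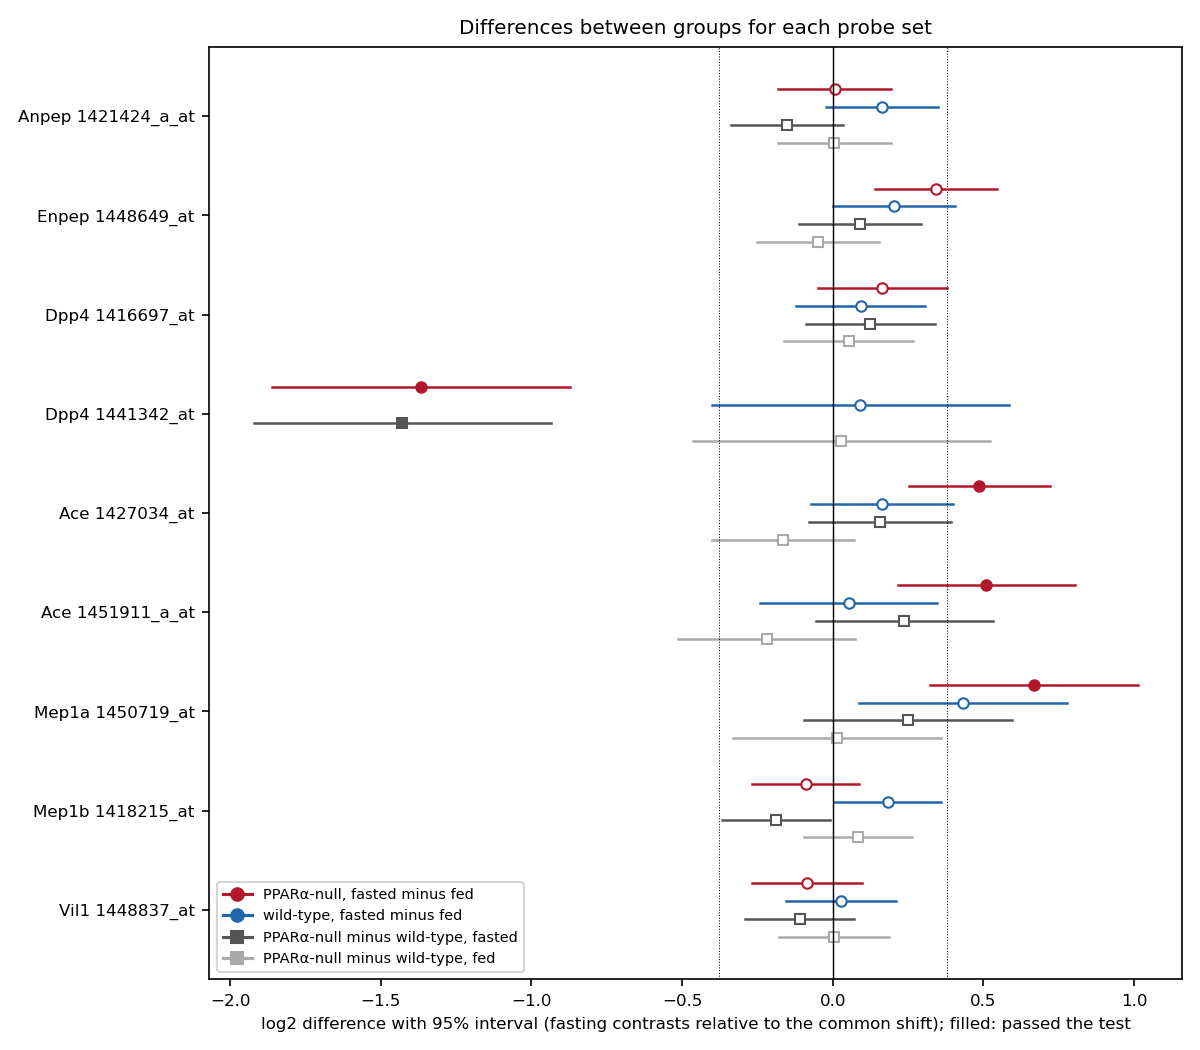
Log2 difference (horizontal axis) with its 95% interval for each probe set in the 4 comparisons; filled symbols passed the test and dotted lines mark a 1.3-fold change. The filled symbols are Ace (0.49 and 0.51), Mep1a (0.67) and Dpp4 1441342_at (-1.37) in fasted against fed PPARα-null mice, and Dpp4 1441342_at (-1.43) between fasted PPARα-null and fasted wild-type mice.

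Aminopeptidase N, encoded by Anpep, takes neutral residues off peptide N-termini and is among the most abundant proteins of the microvillus membrane. Its intensity was 3812, 4066 and 3867 in fasted PPARα-null mice and 4869.9, 4826 and 4852 in fed PPARα-null mice. Wild-type mice gave 4314, 4842 and 3934 when fasted and 4588, 4924 and 4986 when fed. Before the common shift is removed the fasted PPARα-null arrays thus all lay below the fed ones, and after it the groups overlapped in both genotypes. The change upon fasting was 0.0062 ± 0.09 in PPARα-null mice (± SE here and below; 95% interval -0.18 to 0.19) and 0.16 ± 0.09 in wild-type mice (-0.02 to 0.35), neither of which passed. The difference between the genotypes' responses was -0.16 ± 0.12 (adjusted p = 0.383).

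Glutamyl aminopeptidase, encoded by Enpep, takes off acidic residues and converts angiotensin II to angiotensin III. It read 4575, 4655 and 4669 in fasted PPARα-null mice, against 4499, 4712 and 4425 in fed ones. In wild-type mice it read 4357, 4336 and 4351 after fasting and 5447, 4144 and 4599 in the fed state, where 1 array stood well above the other two. The fasted arrays lay close together, with a coefficient of variation of 1.09% in PPARα-null and 0.26% in wild-type mice, against 3.28% and 14.0% in the fed mice of those genotypes. Relative to the common shift all fasted PPARα-null arrays lay above the fed ones, by 0.34 ± 0.09 (adjusted p = 0.00755), which is 1.27-fold and so short of the 1.3-fold threshold. The wild-type difference was 0.20 ± 0.09 (adjusted p = 0.136), and the responses of the genotypes differed by 0.14 (95% interval -0.15 to 0.43).

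Dpp4 was measured by 2 probe sets of very different brightness, and they did not behave alike. The bright one, 1416697_at, read 2419.6, 2859.9 and 2350.5 in fasted PPARα-null mice and 2899, 2663 and 2885 in fed PPARα-null mice. Fasted wild-type mice gave 2109, 2354 and 2532, and fed wild-type mice 2872, 2599 and 2671. It did not pass in any comparison: the change upon fasting was 0.16 ± 0.10 (adjusted p = 0.175) in PPARα-null and 0.09 ± 0.10 (adjusted p = 0.524) in wild-type mice, and the genotypes differed by 0.12 (95% interval -0.09 to 0.34) when fasted.

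The dim probe set, 1441342_at, which the annotation ties to an expressed sequence tag of Dpp4, read 10.4, 16.0 and 10.1 in fasted PPARα-null mice, against 26.8, 47.1 and 44.0 in fed PPARα-null mice. In wild-type mice it read 27.1, 31.9 and 38.0 after fasting and 37.4, 31.8 and 44.1 in the fed state. All 3 fasted PPARα-null arrays lay under every other array and under the level of 20. Readings under that level have no firm size, so the fold is given as a bound with these 3 arrays set at 20: at least 1.53-fold lower than in fed PPARα-null mice (-0.62, relative to the common shift) and at least 1.60-fold lower than in fasted wild-type mice (-0.68). The fit to the values as they stand gave -1.37 ± 0.23 (adjusted p = 2.61e-04) and -1.43 ± 0.23 (adjusted p = 3.26e-04), and a difference between the responses to fasting of -1.46 ± 0.32 (adjusted p = 0.00645). Wild-type mice changed by 0.09 (95% interval -0.40 to 0.58). The interval of the bright probe set upon fasting in PPARα-null mice (-0.05 to 0.38) does not reach the bound of the dim one (-0.62), and no source used here says which part of the transcript each of them reads.

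Dipeptidyl peptidase IV is also the T cell surface antigen CD26. The summed intensity of 11 lymphocyte markers was lowest in the same group, at 736 to 775 in fasted PPARα-null mice and 1400 to 1801 in fed PPARα-null mice, against 1494 to 1667 in fasted and 2192 to 2542 in fed wild-type mice. Upon fasting 5 of the 9 lymphocyte markers tested were lower in PPARα-null mice, against 23.6% of all probe sets, and 3 of 9 in wild-type mice, against 7.43%. As deposited these counts were 8 and 6, against 4064 and 2971 of all 9370 probe sets. Between fasted PPARα-null and fasted wild-type mice 6 of 7 were lower, against 16.8%. Between fed PPARα-null and fed wild-type mice 3 of 9 were lower, against 1.65%, where the dim Dpp4 probe set differed by 0.03. Their part in the dim Dpp4 reading was not tested. The fasted PPARα-null array whose pancreas marker sum was as low as in fed mice (replicate 2) gave the highest of the 3 dim readings, 16.0. It is still below all fed arrays.

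Ace encodes angiotensin-converting enzyme, which removes dipeptides from the C-terminus of peptides. Its probe set 1427034_at read 2052, 1871 and 1989 in fasted PPARα-null mice and 1777, 1789 and 1682 in fed PPARα-null mice. In wild-type mice it read 1506, 2061 and 1776 after fasting and 1804, 1986 and 2105 in the fed state. The fasted PPARα-null arrays all lay above the fed ones, also as deposited, whereas the wild-type groups overlapped. The second probe set, 1451911_a_at, gave 1619, 1333 and 1395 in fasted and 1371, 1307 and 1121 in fed PPARα-null mice, and 1089, 1521 and 1108 in fasted and 1356, 1449 and 1610.2 in fed wild-type mice. Its fasted and fed PPARα-null arrays overlapped as deposited and separated once the common shift was removed.

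Relative to that shift, Ace rose upon fasting in PPARα-null mice by 0.49 ± 0.11 (1.40-fold, adjusted p = 0.00216) and 0.51 ± 0.14 (1.42-fold, adjusted p = 0.00647). Both calls rest on the removal of the shift: as deposited the differences were 0.17 and 0.19. That of 1427034_at did not pass after quantile normalisation (0.37), and that of 1451911_a_at did not pass with the pancreas marker level as a covariate (0.47), without fed PPARα-null replicate 3 (0.42) or without fasted PPARα-null replicate 1 (0.42). In wild-type mice the differences were 0.16 ± 0.11 and 0.05 ± 0.14 (adjusted p = 0.295 and 0.802). The responses of the genotypes differed by 0.32 (95% interval -0.01 to 0.66, adjusted p = 0.150) and 0.46 (0.04 to 0.87, adjusted p = 0.104), so a difference between genotypes was not shown. Fasted wild-type replicate 2 was the highest of its group in both probe sets, and without it the interaction was 0.43 and 0.61 and passed in both. Endothelial cells also carry angiotensin-converting enzyme; of 10 endothelial markers 2 were above 20 in fasted and 2 in fed PPARα-null mice, 1 in fasted and 2 in fed wild-type mice, and neither of the 2 tested upon fasting passed.

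The meprins are zinc metalloendopeptidases. Mep1a encodes the α subunit, which can be shed into the lumen, and Mep1b the membrane-bound β subunit. Mep1a read 1362, 1097 and 1197 in fasted PPARα-null mice and 1090.0, 1008 and 782 in fed PPARα-null mice. Fasted wild-type mice gave 934, 933 and 1219, and fed wild-type mice 1141, 893 and 818. Each fasted PPARα-null array lay above each fed PPARα-null array, the closest pair being 1097 and 1090.0, and the increase was 0.67 ± 0.16 (1.59-fold, adjusted p = 0.00327). As deposited it was 0.35, and with the pancreas marker level as a covariate 0.54, and it passed in neither. Fasted PPARα-null replicate 2, whose pancreas marker sum (1170) was as low as in fed mice, gave the lowest reading of its group for Mep1a (1097). It also did so for both Ace probe sets (1871 and 1333). In fasted wild-type mice the sums were 23510, 19270 and 12500 by replicate. Beside these, Mep1a read 934, 933 and 1219, and Ace 1506, 2061 and 1776 by 1427034_at and 1089, 1521 and 1108 by 1451911_a_at. Apart from the covariate fit, a part of pancreatic signal in these readings was not tested. The sums were higher in fasted than in fed mice except in fasted PPARα-null replicate 2. That fit therefore cannot fully separate pancreatic signal from fasting. Mep1a in wild-type mice was also higher after fasting, by 0.43 ± 0.16 (1.35-fold, limma adjusted p = 0.0666), which did not pass. Without fed wild-type replicate 1 it was 0.58 and passed. The genotypes' responses did not differ beyond error (0.24, 95% interval -0.25 to 0.72).

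Mep1b read 3854, 3861 and 3320.4 in fasted PPARα-null mice and 4719.9, 4817 and 5046 in fed PPARα-null mice. In wild-type mice it read 4202, 4022 and 4318 after fasting and 4599, 4721 and 4431 in the fed state. Its fasted arrays all lay under the fed ones as deposited. With the shift removed the PPARα-null groups overlapped (-0.09 ± 0.08, adjusted p = 0.374) and the wild-type fasted arrays lay above the fed ones (0.18 ± 0.08, adjusted p = 0.127). All fasted PPARα-null arrays were under all fasted wild-type arrays, with a difference of -0.19 ± 0.08 (adjusted p = 0.0874), and the responses differed by -0.27 (95% interval -0.52 to -0.02, adjusted p = 0.110). None of these passed. The Mep1a and Mep1b values side by side were thus 0.67 and -0.09 in PPARα-null mice and 0.43 and 0.18 in wild-type mice.

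Vil1, the structural gene of the group, read 4078, 4599 and 3974 in fasted PPARα-null mice and 5326, 5602 and 5758 in fed PPARα-null mice. It read 4286, 4758 and 4594 in fasted and 5658, 5274 and 5712 in fed wild-type mice. As deposited every fasted array lay under every fed array, with differences of -0.40 in PPARα-null and -0.29 in wild-type mice, which are close to the common shift of -0.32. Relative to the shift the differences were -0.09 ± 0.08 (adjusted p = 0.402) and 0.03 ± 0.08 (adjusted p = 0.838). The genotypes differed by 0.00 (95% interval -0.18 to 0.19) when fed and by -0.11 (-0.29 to 0.07) when fasted. Log2 values were also taken relative to each array's median over probe sets with a fed wild-type mean above 20. This removes the median shift between fed and fasted arrays. The shift of the most abundant 10%, where the brightest probe set of each gene lies, was smaller (-0.22), so some offset remains. On that scale, by the brightest probe set of each gene, Vil1 had the smallest spread of the 7 over all 12 arrays. It was 0.07 (root mean square about its own mean), and that of Mep1a was the largest, 0.36.

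**Figure D3:**
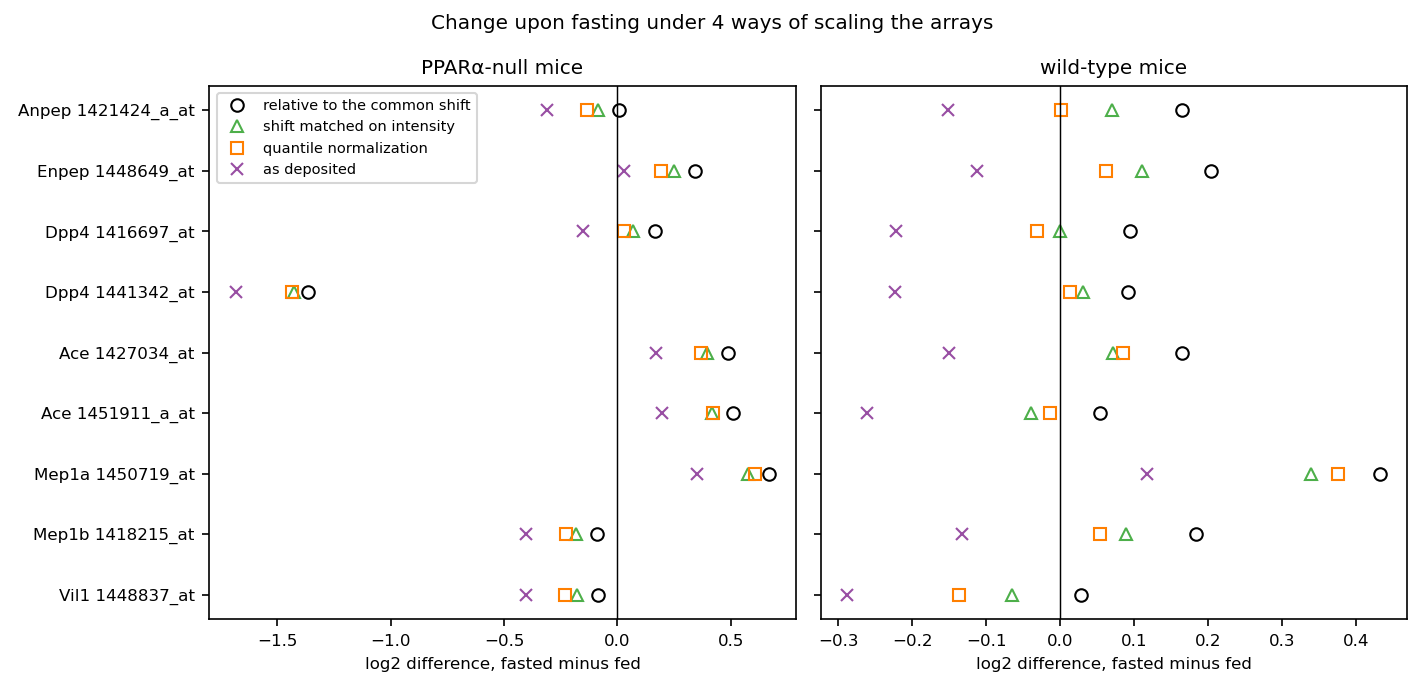
Log2 difference upon fasting (horizontal axis, fasted minus fed; the panels differ in scale) for each probe set in PPARα-null mice (left) and wild-type mice (right) under 4 ways of scaling the arrays. The position of most probe sets against 0 moves with the scaling: in PPARα-null mice Ace 1427034_at goes no lower than 0.17, Mep1a no lower than 0.35, and Dpp4 1441342_at stays below -1.3.

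Intestinal alkaline phosphatase was read through Akp3. Its intensity was 1638, 1574 and 1551 in fasted PPARα-null mice and 998, 953 and 1278 in fed PPARα-null mice. Wild-type mice gave 1049, 1331 and 907 when fasted and 822, 828 and 1214 when fed. The fasted PPARα-null arrays were above all other arrays, also as deposited. Akp3 rose upon fasting by 0.89 ± 0.17 in PPARα-null mice (1.85-fold, adjusted p = 7.57e-04) and by 0.52 ± 0.17 in wild-type mice (1.44-fold, adjusted p = 0.0433). The first held under all 24 other settings tried, including each array left out; the second passed under 8 of them and did not pass as deposited. Fasted PPARα-null mice had 0.55 ± 0.17 more than fasted wild-type mice (adjusted p = 0.0206; passed under 16 of 24 settings), and the responses differed by 0.37 (95% interval -0.16 to 0.89, adjusted p = 0.298).

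The 4 group means were put in order, relative to the common shift. Both Ace probe sets, Enpep, Mep1a, the bright Dpp4 probe set and Akp3 had their highest mean in fasted PPARα-null mice and their second highest in fasted wild-type mice. Mep1b, Vil1 and the dim Dpp4 probe set had their highest mean in fasted wild-type mice and their lowest in fasted PPARα-null mice, and Anpep was highest in fasted wild-type mice and lowest in fed wild-type mice. Most neighbours in these orders did not differ beyond their spread: the whole range over the 4 means was 0.11 for Vil1, 0.16 for Anpep, 0.19 for Mep1b and 0.22 for the bright Dpp4 probe set, 0.34 for Enpep, 0.49 and 0.51 for Ace, 0.68 for Mep1a, 1.07 for Akp3 and 1.43 for the dim Dpp4 probe set. Relative to the shift, 6 of the 9 probe sets did not overlap between fasted and fed PPARα-null arrays, against 63.7% of all probe sets, and 2 of 9 did not in wild-type mice, against 38.1%. Between the genotypes 3 of 9 did not overlap when fasted, against 50.6%, and 1 of 9 when fed, against 16.6%.

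The genes with the most similar profiles over the arrays were then listed. Likeness was measured as the root mean square difference of the log2 profiles over the 12 arrays. Profiles were taken relative to the same array medians as above and each centred on its own mean. They were compared with 4459 probe sets of other genes with a mean over 100 (4458 for Ace). Likeness is a description of these arrays, which share their fasted and fed scaling. The closest profile to Vil1 was that of Cox7a2, a subunit of cytochrome c oxidase, at 0.05, and the closest to Mep1b was Mdh1, the cytosolic malate dehydrogenase, at 0.05. Anpep was nearest to Atp5l, a subunit of ATP synthase, at 0.07, Enpep to the translation initiation factor subunit Eif3a at 0.06 and Dpp4 to the aldehyde dehydrogenase Aldh9a1 at 0.07. Ace lay nearest to the transcription factor gene Mef2a at 0.09, with a probe set of another brush border peptidase, Mme (neprilysin, 1422975_at), next but one at 0.10. Mep1a, the most variable, had no profile closer than that of Son, at 0.14. None of the 3 nearest profiles of any of the 7 was another of them. Among themselves Mep1b and Vil1 were the closest, at 0.09, and Mep1a and Vil1 the farthest apart, at 0.38.

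Other genes of the brush border were then counted, each by its brightest probe set. Of 12 further brush border peptidases 8 were on the array and 3 were tested upon fasting, of which 1 was higher in PPARα-null mice, against 18.6% of all probe sets, and 1 in wild-type mice, against 10%. It was Xpnpep2, the membrane-bound aminopeptidase P that removes residues before proline, which rose by 1.3 ± 0.14 in PPARα-null mice (2.46-fold, adjusted p = 8.64e-06) and by 0.49 ± 0.14 in wild-type mice (adjusted p = 0.0238). The wild-type rise did not pass as deposited. Its responses differed between the genotypes by 0.81 (adjusted p = 0.0114).

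Mme and Dpep1, a membrane dipeptidase, had 2 bright probe sets each, and these disagreed. The brighter of Mme, 1455961_at, had differences of 0.19 in PPARα-null and 0.11 in wild-type mice and did not pass. The other, 1422975_at, whose profile lay near that of Ace, rose by 0.52 ± 0.10 in PPARα-null mice (adjusted p = 0.00112) and had a difference of 0.04 in wild-type mice. Dpep1 had differences of 0.24 by 1419674_a_at and -0.22 by 1435943_at in PPARα-null mice, and of 0.20 and 0.31 in wild-type mice, none of which passed. By Dpep1 1435943_at the responses of the genotypes differed by -0.53 (limma adjusted p = 0.012) and the fasted genotypes by -0.42 (limma adjusted p = 0.003), and both passed. By Mme 1422975_at the responses differed by 0.47 (limma adjusted p = 0.036), which passed. The brighter probe set of each gene did not pass in these comparisons.

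Among brush border carbohydrases, lipases and phosphatases, 6 genes were tested upon fasting. In PPARα-null mice Akp3 was higher and Enpp3, an ectonucleotide pyrophosphatase, lower by its brightest probe set, 1427302_at (-0.55 ± 0.13, adjusted p = 0.00349). The other Enpp3 probe sets tested did not pass: 1452384_at had -0.30 (adjusted p = 0.0744) and 1439260_a_at -0.07 (adjusted p = 0.685). By the brightest probe sets 1 of the 6 was thus higher and 1 lower in PPARα-null mice, against 18.6% and 23.6% of all probe sets. In wild-type mice 1 of the 6 passed, Akp3, which was higher, against 10%. As deposited 1 was higher and 2 lower in PPARα-null mice, against 765 and 4064 of all 9370 probe sets. In wild-type mice 0 were then higher and 1 lower, against 233 and 2971. Lct, which encodes lactase, had differences of -0.16 in PPARα-null and -0.01 in wild-type mice, neither of which passed. Asah2, a ceramidase, had differences of 0.01 and 0.12 by its brightest probe set and did not pass, whereas its dimmer one, 1425994_a_at, fell by 1.05 ± 0.16 in PPARα-null mice (adjusted p = 1.39e-04) and by 0.63 ± 0.16 in wild-type mice (adjusted p = 0.0149).

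Of the microvillus core and anchor proteins 17 were tested. Relative to the common shift 5 were higher and 0 lower in PPARα-null mice, against 18.6% and 23.6% of all probe sets. In wild-type mice 0 passed, against 17.5%. As deposited the direction turned. Then 0 were higher and 5 lower in PPARα-null mice, against 765 and 4064 of all 9370 probe sets. In wild-type mice 0 were then higher and 2 lower, against 233 and 2971. The 5 that were higher included Ezr, which encodes ezrin, the linker of the actin core to the membrane (0.61 ± 0.10, adjusted p = 3.37e-04), its partner Slc9a3r1 (0.54 ± 0.12, adjusted p = 0.00194) and the adhesion molecule gene Tmigd1 (0.65 ± 0.17, adjusted p = 0.00690). The median of the 17 was 0.15 in PPARα-null and 0.07 in wild-type mice, against -0.02 and 0.03 over all probe sets tested, and as deposited -0.16 and -0.25.

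Peptidases inside the cell, which finish the digestion of absorbed peptides or turn over cellular protein, were set beside the surface enzymes. Of 17 tested, 2 were higher and 3 lower in PPARα-null mice, against 18.6% and 23.6% of all probe sets, and 1 higher and 1 lower in wild-type mice, against 10% and 7.43%. As deposited 0 were higher and 8 lower in PPARα-null mice, against 765 and 4064 of all 9370 probe sets. In wild-type mice 0 were then higher and 5 lower, against 233 and 2971. The falls in PPARα-null mice included Rnpep, aminopeptidase B (-1.72 ± 0.12, adjusted p = 2.44e-07), and Npepps, the puromycin-sensitive aminopeptidase (-0.95 ± 0.13, adjusted p = 4.55e-05).

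Of 12 transcription factors of enterocyte differentiation, 3 were higher and 5 lower in PPARα-null mice, against 18.6% and 23.6% of all probe sets. In wild-type mice 1 was higher and 1 lower, against 10% and 7.43%. As deposited 1 was higher and 6 lower in PPARα-null mice, against 765 and 4064 of all 9370 probe sets. In wild-type mice 0 were then higher and 3 lower, against 233 and 2971. The nuclear receptor gene Hnf4g fell in PPARα-null mice (-1.09 ± 0.15, adjusted p = 5.79e-05). Gata5 was read in opposite directions by its 2 probe sets there: 1450125_at fell (-1.87 ± 0.14, adjusted p = 5.10e-07) and the dimmer 1450126_at rose (0.77 ± 0.16, adjusted p = 0.00126). Creb3l3 rose in PPARα-null mice (0.96 ± 0.08, adjusted p = 1.47e-06) and in wild-type mice (0.56 ± 0.08, adjusted p = 8.66e-04), the second not passing as deposited.

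**Figure D4:**
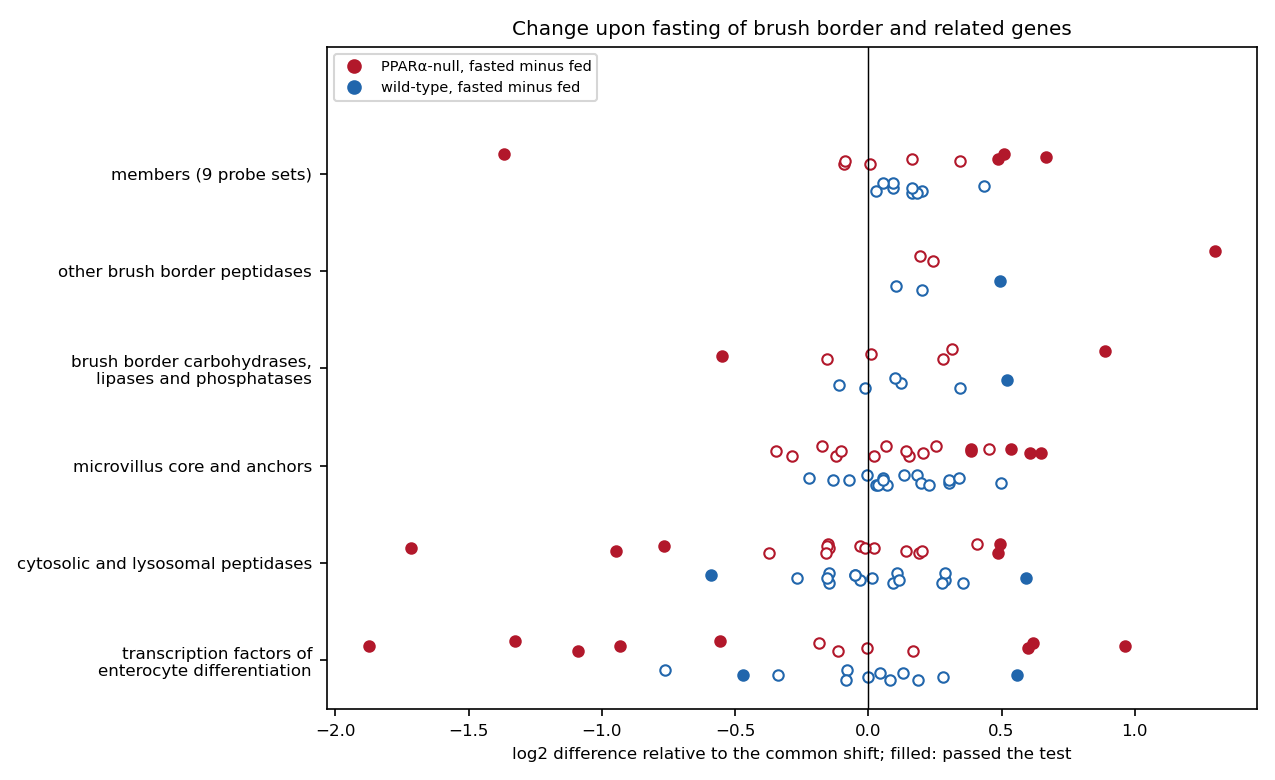
Log2 difference upon fasting (horizontal axis, relative to the common shift) for the 9 probe sets and for the tested genes of 5 related lists by their brightest probe set, 1 point per gene and genotype (red PPARα-null, blue wild-type); filled points passed the test, and vertical offsets within a line only separate the points. Among the points shown, the surface enzymes stay between -0.55 and 1.3 apart from the dim Dpp4 probe set. Single intracellular peptidases and transcription factors reach -1.72 (Rnpep) and -1.87 (Gata5 1450125_at) in PPARα-null mice. The medians of these 2 lists there were -0.03 and -0.15. Dimmer probe sets not shown include Asah2 1425994_a_at (-1.05) and Gata5 1450126_at (0.77).

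Since Ace, Mep1a and one reading of Dpp4 were the results that passed, the 250 bases before their annotated start sites are shown for context (RefSeq, GRCm38.p6). Of the 8 genes 7 had an entry in the promoter table used here. Ace had 2 start sites there, of which the upstream one is shown. Both strands were searched for 6 motifs. The TATA box, which positions the transcription machinery, was taken as TATAAA. Factors of the GATA family, which are active in the proximal small intestine, were represented by the letters AGATAA. The hepatocyte nuclear factor HNF1, known to act on several brush border enzyme genes, was given by GTTAAT. The intestinal homeobox factors of the CDX family were searched for as TTTATTG. For the nuclear receptor HNF4 the letters were CAAAGTCCA. The last was the DR1 element, a pair of AGGTCA letters 1 base apart, to which PPARα and other nuclear receptors bind. Capitals mark the matches, and no matches overlapped.
Dpp4, chr2:62412232-62412481, minus strand: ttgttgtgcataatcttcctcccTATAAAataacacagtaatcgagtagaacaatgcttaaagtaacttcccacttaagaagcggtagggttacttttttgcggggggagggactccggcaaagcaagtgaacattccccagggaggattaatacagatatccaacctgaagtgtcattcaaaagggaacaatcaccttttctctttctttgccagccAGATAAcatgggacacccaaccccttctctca
Ace, chr11:105967698-105967947, plus strand: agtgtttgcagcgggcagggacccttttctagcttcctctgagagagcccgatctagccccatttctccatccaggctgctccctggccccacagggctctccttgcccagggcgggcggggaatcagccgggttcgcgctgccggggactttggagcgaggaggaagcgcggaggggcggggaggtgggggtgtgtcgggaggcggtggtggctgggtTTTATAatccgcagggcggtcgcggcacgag
Mep1a, chr17:43502774-43503023, minus strand: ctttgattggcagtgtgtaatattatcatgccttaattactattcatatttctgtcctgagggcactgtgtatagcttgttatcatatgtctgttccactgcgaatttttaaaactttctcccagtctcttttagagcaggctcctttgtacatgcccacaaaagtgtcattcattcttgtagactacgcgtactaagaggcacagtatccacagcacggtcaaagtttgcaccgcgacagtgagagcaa

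The Dpp4 window held the TATA box letters at -227 to -222 and the GATA letters at -32 to -27 from the start site. The Ace window shown held the TATA box letters on the opposite strand at -31 to -26, that of the second Ace start site (chr11:105974939-105975188, GC 58.0%) held none of the 6 motifs, and the Mep1a window held none of the 6 motifs. Over all 32851 promoter windows of the same length, 12.4% held the TATA box letters, 9.99% the GATA site, 6.43% the HNF1 site, 4.2% the CDX site, 0.384% the HNF4 site and 0.0335% the DR1 element. The windows differed widely in base composition: GC was 41.6% for Mep1a, 43.6% for Dpp4 and 67.2% for the Ace window shown, and 72.8% for Anpep and 62.8% for Vil1, with a median of 52.4% over all windows. A match is a description of letters only, and no measurement of binding was made.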

How the data were processed

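Small intestinal RNA of 12 mouse samples was hybridised on Affymetrix MOE430A arrays. The values are intensities deposited by the authors, made with GCRMA (2.20), which corrects background, normalises quantiles and summarises each probe set. The 6 fed arrays share 1 distribution of values and the 6 fasted arrays another. Probe sets were named from the platform's annotation: 20393 of 22690 carried 1 symbol, 691 several and 1606 none.

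Intensities were taken to log2 and fitted with limma 3.58.1 (lmFit, eBayes) in R 4.3.3, 1 mean per group, after checking on simulated data. The shift of fasted arrays (-0.32) was subtracted in fasting contrasts. The threshold followed the study's methods. The interaction was called at an adjusted p under 0.05. Named genes were all member probe sets, Ppara and, per list, up to 3 called rises, 3 called falls and the 2 most abundant genes not called; for each member, the 3 nearest profiles. Further probe sets of the named list genes, and the bound for the dim Dpp4 probe set, were added after their values were seen. The members and lists were chosen with earlier results of these data known. Alternatives covered scaling, thresholds, level filters, variance models, array weights, a pancreas covariate, the replicate block and each array left out. Precision is limited by 3 arrays per group.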

Additional observations from a re-analysis of the deposited data

Results flagged for a closer look

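The results below were picked because the response to fasting differed between PPARα-null and wild-type mice by a limma interaction test (log2, response in PPARα-null minus that in wild-type mice; 23.8% of all probe sets passed it). The dim Dpp4 probe set 1441342_at had -1.46 (adjusted p = 0.00645; fitted to fasted PPARα-null readings under 20), with changes of -1.37 in PPARα-null and 0.09 in wild-type mice, while the bright one had 0.07 (adjusted p = 0.758). Leaving out any 1 array gave the dim probe set -1.71 to -1.31. With a level over 100 required, it was not tested.

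Xpnpep2 had 0.807, and the microvillus gene Lima1 (1422499_at) had -0.514, which did not pass under 14 of 23 other settings. Of the intracellular peptidases, Rnpep had -1.45, Npepps -0.916 and Lap3 -0.571. Of the transcription factors, Gata6 had 0.573, Creb3l3 0.407, Gata5 (1450125_at) -1.41, Hnf4g -1.28 and Hnf4a (1427001_s_at) -0.475. Lap3 did not pass under 4 of the 23 settings and Creb3l3 under 7, while Xpnpep2, Rnpep, Npepps, Gata6, Gata5, Hnf4g and Hnf4a passed under all 23. The second Gata5 probe set had 0.45 and the other 3 Hnf4a probe sets -0.44 to -0.08, none of which passed.

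Single outlying arrays were not looked for, since each group held 3 arrays.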

How the results depend on the processing

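The change of scaling between fed and fasted arrays moved more results than any other choice. As deposited, the PPARα-null changes upon fasting of Ace (0.17 and 0.19) and Mep1a (0.35) no longer passed and those of Mep1b (-0.40) and Vil1 (-0.40) did, so that 3 probe sets were lower and 0 higher, and 51.5% of all probe sets passed in PPARα-null and 34.2% in wild-type mice. Small differences turned their sign. As deposited these were, upon fasting in PPARα-null mice, Anpep (-0.31) and Dpp4 1416697_at (-0.15), and in wild-type mice Ace (-0.15 and -0.26), Anpep (-0.15), Dpp4 (-0.22 and -0.22), Enpep (-0.11), Mep1b (-0.13) and Vil1 (-0.29). With the shift matched on intensity they were Anpep (-0.087) in PPARα-null and Ace 1451911_a_at (-0.040) and Vil1 (-0.066) in wild-type mice. With quantile normalisation they were, in PPARα-null mice, Anpep (-0.14), in wild-type mice Ace 1451911_a_at (-0.015), Dpp4 1416697_at (-0.032) and Vil1 (-0.14), and between PPARα-null and wild-type mice when fed Anpep (-0.013) and Vil1 (-0.0046); Ace 1427034_at in PPARα-null mice (0.37) no longer passed. With arrays centred on their median the fed genotype differences of Anpep (-0.039), Dpp4 1441342_at (-0.016), Mep1a (-0.030) and Vil1 (-0.041) turned, with array weights those of Anpep (-0.0022) and Vil1 (-0.0054), and with the pancreas covariate that of Vil1 (-0.0033), the PPARα-null fasting change of Vil1 (0.00080) and the wild-type fasting change of Ace 1451911_a_at (-0.0030). None of these turned differences passed the test, before or after.

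With the pancreas covariate 2 of 9 passed upon fasting in PPARα-null mice, against 34.9% of all probe sets. Mep1a (0.54) and Ace 1451911_a_at (0.47) were lost. Counting 1 probe set per gene, 2 passed there (Ace and Mep1a) and 0 in the interaction and between fasted genotypes. With a level over 100 required, 0 passed in those same comparisons, as the dim Dpp4 probe set was not tested. Of all probe sets 24.1% and 27.9% then passed there. With arrays centred on their median Enpep (0.41) passed too in PPARα-null mice. With trended and robust variances 2 passed in the interaction, against 23.5% of all probe sets, Mep1b (-0.27) being added. Leaving out 1 array gave 3 to 4 upon fasting in PPARα-null mice, 0 to 1 in wild-type mice, 1 to 2 between fasted genotypes, 0 to 0 between fed genotypes and 1 to 3 in the interaction. In the same order, 39% to 42.6%, 15.1% to 18.9%, 27.9% to 31%, 2.47% to 3.1% and 20% to 23% of all probe sets passed. Without fasted wild-type replicate 2, Ace 1451911_a_at passed between fasted genotypes (0.39). It was lost upon fasting in PPARα-null mice without fed PPARα-null replicate 3 (0.42) or fasted PPARα-null replicate 1 (0.42). Signs turned within these leave-one-out ranges: upon fasting in PPARα-null mice Anpep (-0.018 to 0.019); in wild-type mice Ace 1451911_a_at (-0.098 to 0.14), Dpp4 1441342_at (-0.032 to 0.21) and Vil1 (-0.0063 to 0.072); between fed genotypes Anpep (-0.031 to 0.029), Dpp4 1441342_at (-0.12 to 0.28), Enpep (-0.14 to 0.058), Mep1a (-0.086 to 0.16) and Vil1 (-0.032 to 0.035); and in the interaction Dpp4 1416697_at (-0.017 to 0.13). Of 540 such values for the 9 probe sets 514 kept their direction and side of the threshold, and of 531 under the other alternatives 490 did. Many of the 531 could not move. As deposited and with the shift matched on intensity, genotype differences and the interaction stay as they were. Settings of threshold, level filter or variance model leave the log2 difference unchanged.

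Over 18 pairs of groups' same-numbered arrays the deviations correlated between -0.149 and 0.218, and 5 pairs exceeded 0.1. Differently numbered arrays correlated between -0.283 and 0.224. With 3 arrays per group this cannot settle whether replicate numbers pair the samples. With the replicate block 4 probe sets passed upon fasting in PPARα-null mice, 0 in wild-type mice, 0 between fed genotypes, 1 between fasted genotypes and 1 in the interaction, and the block changed no other call of the 9. In the same order, 42.2%, 17.4%, 2.82%, 30.5% and 22.8% of all probe sets passed with it. The dim Dpp4 probe set lies near the level of 20, where signal over background is small, and 3 arrays per group leave wide intervals. The cause of these dependences was not tested.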

Other observations

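Other cells of the intestinal wall moved beside the brush border genes. Counts are relative to the common shift unless given as deposited, and are to be read against all probe sets tested: 18.6% were higher and 23.6% lower upon fasting in PPARα-null mice, and 10% and 7.43% in wild-type mice. As deposited, 765 of all 9370 probe sets were higher and 4064 lower in PPARα-null mice, and 233 and 2971 in wild-type mice. Of 10 cycling crypt markers tested, 6 fell in PPARα-null mice and 1 in wild-type mice (as deposited 9 and 8), with medians of -0.61 and -0.27, against -0.02 and 0.03 over all probe sets tested. Of 8 smooth muscle markers 1 fell in PPARα-null and 5 in wild-type mice (as deposited 3 and 7). Of 7 fibroblast markers 4 fell in each genotype, with 1 rise in PPARα-null mice (as deposited 4 fell in PPARα-null and 6 in wild-type mice).

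The enterocyte counts turned with the scaling. Of 13 markers 5 were higher and 0 lower in PPARα-null mice (median 0.35), and 2 higher and 0 lower in wild-type mice (median 0.08). As deposited 0 were higher and 2 lower in PPARα-null mice (median 0.03), and 0 higher and 1 lower in wild-type mice (median -0.23). Several enterocyte markers are brush border genes themselves, so these counts are not separate from the genes above.

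The crypt stem markers fell in 3 of 5 in PPARα-null mice and in 0 of 5 in wild-type mice (as deposited 4 and 1), and in 4 of 5 the response was lower in PPARα-null mice by the interaction, against 14.6% of all probe sets. Of 7 goblet cell markers 2 fell in each genotype (as deposited 3 in each). Of 5 Paneth cell markers 0 passed in PPARα-null mice and 1 was higher in wild-type mice. Of 9 enteroendocrine markers 3 were higher and 1 lower in PPARα-null mice, and 1 higher and 1 lower in wild-type mice (as deposited 1 and 1, and 0 and 3). Of 5 macrophage and dendritic cell markers 0 passed in PPARα-null and 1 was lower in wild-type mice (as deposited 3 in each). Of 11 exocrine pancreas markers 6 rose in PPARα-null and 10 in wild-type mice, with 0 lower in either (as deposited 4 and 9 rose).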
